A study of Homo sapiens with 2 samples.

Results

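The genes of glycolysis and of the pentose phosphate pathway were described in KASUMI-1 cells, a human acute myeloid leukaemia line with a RUNX1-RUNX1T1 fusion gene. The 34 genes were taken by symbol from a fixed list of glucose carriers, enzymes, pyruvate dehydrogenase subunits and regulators, and all 34 were found among the 50464 symbols of the deposited table. The USP6 group was infected with a lentivirus carrying the name of USP6, a deubiquitinase gene. The pccl group was infected with a lentivirus named pccl in the labels and served as the comparator. No other allele, agent or time is given for either, and whether infected cells were selected is not stated in the labels. With 1 RNA sequencing library in each group, none of the differences has a replicate check, no test was run, and there is no SD.

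Glycolysis splits glucose into pyruvate in the cytosol and yields ATP and NADH. The pentose phosphate pathway branches off after the first phosphorylation: its oxidative arm makes NADPH, and its non-oxidative arm exchanges sugar phosphates with glycolysis and supplies ribose for nucleotides. Several steps are run by isoenzymes from separate genes, which differ in tissue and in regulation. Leukaemic blasts are known for high glucose use, and the transcription factor subunit encoded by HIF1A is a known activator of many glycolytic genes when oxygen is low.

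The libraries held 12518795 counts for USP6 and 12306442 for pccl, of which the mitochondrial genome took 45.6% and 49.9%. USP6 itself had 70 counts (0.340 FPKM) in the USP6 library and 8 (0.0396 FPKM) in the pccl library, under 1 FPKM in both. The markers of a myeloid blast were present in both libraries, and 7 of 7 passed 1 FPKM. By the 2-fold limit explained below 3 were higher in the USP6 library (MPO, SPI1 and ANPEP) and 2 lower (CD34 and KIT). The shares of all genes past this limit were 13.7% higher and 11.4% lower. Summed levels of these 7 markers were 406 FPKM in the USP6 and 238 FPKM in the pccl library, mostly SPI1 (230.4 and 94.0 FPKM) and MPO (122 and 27.4 FPKM). KIT, a receptor of blasts, had 40.0 FPKM in the USP6 and 99.3 FPKM in the pccl library, and CD34, a progenitor marker, 4.19 and 12.6 FPKM. Of the markers of other cells, 0 of 5 erythroid genes passed 1 FPKM, with ALAS2 and HBG1 at 0 counts in both. For T cells 3 of 4 genes passed (summed 22.4 and 10.9 FPKM in USP6 and pccl), for B cells 1 of 3 (10.6 and 2.68 FPKM), and for epithelium and stroma 1 of 4 (8.79 and 17.4 FPKM), with KRT5 and COL1A2 at 0. The T cell sum was mostly CD4 (16.7 and 9.57 FPKM). CD3E (4.88-fold, 3.80 to 6.34) and CD79A (4.05-fold, 3.15 to 5.25) were higher past the 2-fold limit. In these lists of other cells 0 genes were lower past it. The part of these differences in the results below was not tested. In bulk RNA, fewer cells of a type and less RNA per cell cannot be told apart.

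Levels are FPKM, the reads of a gene scaled by its length and by the total count of its library. Differences are log2((USP6 + 1)/(pccl + 1)) of FPKM, and a gene was counted as higher or lower at or past 1 or -1, which is called the 2-fold limit here, if it had at least 1 FPKM in the higher library. Folds are plain FPKM ratios with a 95% exact conditional binomial interval from the counts, which covers counting error only and not variation between cultures or copies made by PCR.

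Of the 34 genes, 26 passed 1 FPKM in the higher library, and 22 did so in each library. In the USP6 library 5 of the 26 were higher (19.2%), namely PFKL, GAPDH, ENO3, PGLS and RPE, against 13.7% of all 10153 genes that passed. PGK1, PGAM1 and HIF1A, 3 of the 26 (11.5%), were lower, against 11.4% of all genes. At a 1.5-fold limit (0.58 on the log2 scale) 7 were higher (26.9%, against 27.9% of all genes) and 10 lower (38.5%, against 24.5%). The median log2 ratio of the 26 was -0.25, and that of all 10153 genes 0.06. The middle range from the lower to the upper quartile ran from -0.69 to 0.50 in these 26 genes and from -0.57 to 0.65 in all genes, so the pathway genes were spread about as widely as the rest. With depth taken from nuclear genes, 28 of the 34 passed 1 FPKM, and 6 were higher and 6 lower (21.4% each), against 14.6% and 16.1% of all genes that passed in that setting. Once the trend with GC content was subtracted, 2 of the 26 were higher and 5 lower (7.69% and 19.2%), against 9.69% and 9.84% of all genes.

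**Figure D1:**
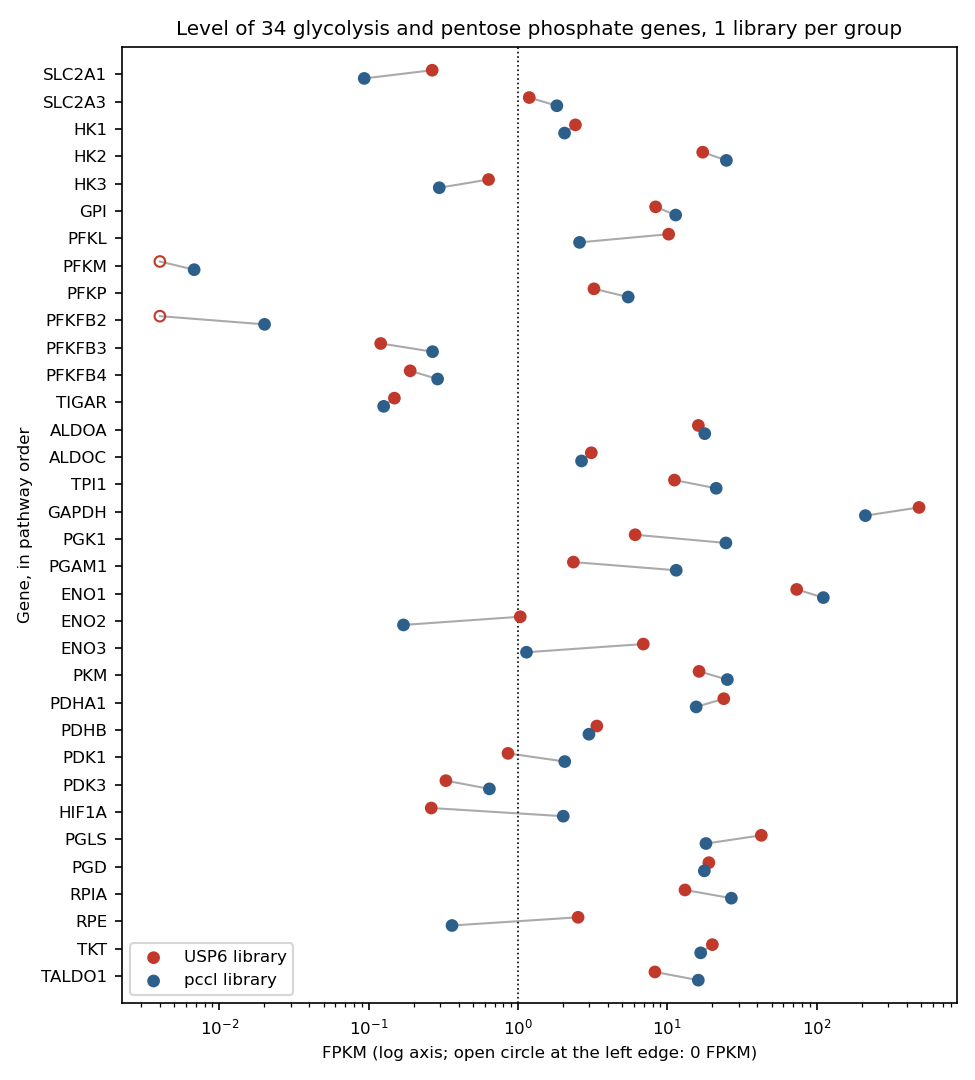
FPKM of each of the 34 genes on a log axis, in pathway order from top to bottom, with 1 point per library (USP6 in red above, pccl in blue below) and a dotted line at 1 FPKM. GAPDH is the most abundant in both libraries, PGK1, PGAM1 and HIF1A lie far lower in the USP6 library, and PFKM and PFKFB2, drawn as open circles, had 0 FPKM there.

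Summed over all 34 genes, the level was 800 FPKM in the USP6 library and 596 FPKM in the pccl library. This sum was dominated by 1 gene: without GAPDH it was 315 FPKM in the USP6 and 384 FPKM in the pccl library, so the direction turned. The gene lengths behind these FPKM values were 1.62 times the union of the annotated exons in the median gene, from 0.637 times for PDK3 to 3.67 times for ALDOA. Levels of different genes are thus comparable only as far as these lengths hold, while a gene's ratio between the libraries does not depend on its length.

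At the entry of the pathway, the levels of the main carrier and hexokinase were somewhat lower in the USP6 library. SLC2A3, a glucose transporter of high affinity, had 1.19 FPKM (198 counts) in the USP6 and 1.82 FPKM (298 counts) in the pccl library, 1.53-fold lower (1.27 to 1.84). SLC2A1, the widespread basal glucose transporter, was near the floor with 29 counts in the USP6 and 10 in the pccl library (0.266 and 0.0934 FPKM). SLC2A1 was thus 2.85-fold higher in the USP6 library, with a wide interval (1.35 to 6.56). HK2, the hexokinase often induced in tumour cells, had 17.3 FPKM in the USP6 and 24.9 FPKM in the pccl library, 1.44-fold lower (1.34 to 1.54). HK1, the constitutive form, had 2.43 FPKM in the USP6 and 2.05 FPKM in the pccl library, and its counting interval held a ratio of 1. HK3, a form found in myeloid cells, stayed under 1 FPKM with 37 counts in the USP6 and 17 in the pccl library, 2.14-fold higher (1.175 to 4.052). HK2 thus made up 84.9% of hexokinase FPKM in the USP6 library and 91.4% in the pccl library. HK1 relative to HK2 was 1.70-fold higher in the USP6 library (1.40 to 2.07). GPI, which turns glucose 6-phosphate into fructose 6-phosphate, had 8.35 FPKM in the USP6 and 11.4 FPKM in the pccl library, 1.36-fold lower (1.27 to 1.46).

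At phosphofructokinase, the main control point of glycolysis, the leading isoenzyme by FPKM differed between the libraries. PFKL, the liver-type subunit (chromosome 21 from 44300051 to 44327376), had 10.2 FPKM (1934 counts) in the USP6 library and 2.59 FPKM (481 counts) in the pccl library, 3.95-fold higher (3.58 to 4.38). PFKP, the platelet-type subunit (chromosome 10 from 3066333 to 3137712), went the other way with 3.23 FPKM (270 counts) in the USP6 and 5.47 FPKM (450 counts) in the pccl library, 1.70-fold lower (1.45 to 1.98). PFKM, the muscle type, had 0 counts in the USP6 and 1 count in the pccl library, at or under the floor of 3 counts in both. PFKL was therefore the leading subunit in the USP6 library with 76.0% of the summed phosphofructokinase FPKM, while PFKP led in the pccl library, where PFKL had 32.1%. Relative to PFKP, PFKL was 6.70-fold higher in the USP6 library (5.57 to 8.06), a ratio within each library that does not depend on how libraries are scaled. The PFKL transcript is the richest in GC of the 26 (64.1%), and after GC centring this ratio was 5.32. By read counts, which are not divided by gene length, PFKL had 87.7% in the USP6 and 51.6% in the pccl library, so PFKP no longer led there. With the length of the longest annotated transcript in place of the deposited length, PFKL had 76.8% in the USP6 and 33.0% in the pccl library. Summed over the step, FPKM was 13.4 in the USP6 and 8.07 in the pccl library.

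**Figure D2:**
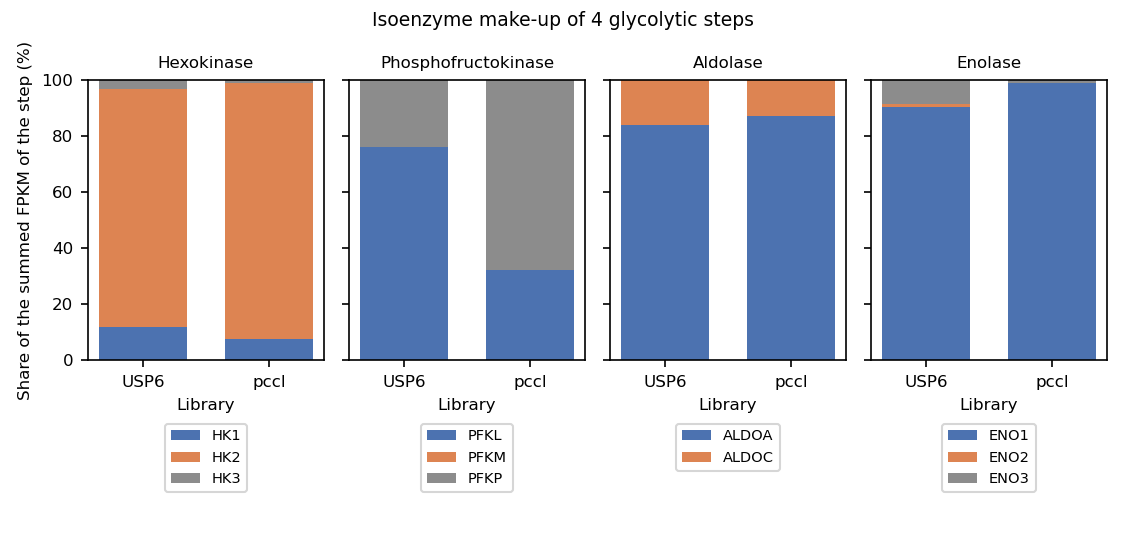
Share of each isoenzyme in the summed FPKM of its step, in percent, for 4 steps, with the USP6 library left of the pccl library in each panel. PFKL takes 76.0% of phosphofructokinase FPKM in the USP6 and 32.1% in the pccl library, and ENO3 takes 8.47% and 1.02% of enolase FPKM, while HK2 (84.9% and 91.4%) and ALDOA (83.9% and 87.0%) lead their steps in both.

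The enzymes that set fructose 2,6-bisphosphate, an activator of phosphofructokinase, were barely detected. PFKFB3 had 16 counts in the USP6 and 35 in the pccl library, PFKFB4 had 18 and 27, and PFKFB2 had 0 and 3. TIGAR, a phosphatase that lowers fructose 2,6-bisphosphate and is known as a p53 target, had 12 counts in the USP6 and 10 in the pccl library. The highest level among them was the 0.290 FPKM of PFKFB4 in the pccl library. The interval of PFKFB3 did not hold a ratio of 1 (2.23-fold lower, 1.20 to 4.31), while those of PFKFB4 and TIGAR did, and no fold was taken for PFKFB2.

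Aldolase, which cleaves the sugar into its triose phosphates, was nearly level. ALDOA, the main form, had 16.1 FPKM in the USP6 and 17.8 FPKM in the pccl library, 1.10-fold lower (1.05 to 1.16). ALDOC, known as the brain form, had 3.10 FPKM in the USP6 and 2.67 FPKM in the pccl library, with an interval that held 1 and a log2 ratio of 0.16 that became -0.18 after GC centring. Relative to ALDOA it was 1.28-fold higher in the USP6 library (1.02 to 1.62). It overlaps AC005726.1 on the same strand, a gene with 342 counts in the USP6 and 110 in the pccl library. TPI1, which interconverts the triose phosphates, had 11.2 FPKM (937 counts) in the USP6 and 21.3 FPKM (1753 counts) in the pccl library, 1.90-fold lower (1.76 to 2.06). Its log2 ratio was -0.87 as deposited and -1.25 after GC centring, past the 2-fold limit.

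After the triose phosphates, neighbouring steps stood far apart in opposite directions. GAPDH, which oxidises glyceraldehyde 3-phosphate (chromosome 12 from 6533927 to 6538374), had 485 FPKM (41987 counts) in the USP6 library and 212 FPKM (18044 counts) in the pccl library, 2.29-fold higher (2.25 to 2.33). PGK1, which makes the first ATP of the pathway in the step right after it (chromosome X from 78065188 to 78129296), had 6.09 FPKM (502 counts) in the USP6 and 24.7 FPKM (2000 counts) in the pccl library, 4.05-fold lower (3.67 to 4.48). PGAM1, the phosphoglycerate mutase that follows (chromosome 10 from 97426160 to 97433441), had 2.35 FPKM (90 counts) in the USP6 and 11.5 FPKM (432 counts) in the pccl library, 4.88-fold lower (3.88 to 6.20), the lowest log2 ratio of the 26 (-1.90). The ratio of GAPDH to PGK1 was 79.6 in the USP6 and 8.59 in the pccl library, a 9.27-fold difference (8.39 to 10.3) that was 5.63-fold after GC centring. These neighbouring steps were chosen for comparison after their values were seen.

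GAPDH is often used to scale expression measurements, and its log2 ratio of 1.19 was 0.72 after GC centring and 1.08 with depth from nuclear genes. The table lists 62 GAPDH pseudogenes, of which 16 had a count, with 161 counts together in the USP6 and 90 in the pccl library. Reads may be shared with such copies, but they held 0.382% of the summed counts in the USP6 and 0.496% in the pccl library, and the fold with them was 2.28. For PGAM1 the 14 listed pseudogenes had 10 counts in the USP6 and 1 in the pccl library, and with them the gene was 4.40-fold lower. The muscle mutase PGAM2 had 43 and 9 counts, 4.70-fold higher in the USP6 library (2.26 to 11.0).

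The stretches of 250 bases before the RefSeq starts of PGAM1, GAPDH and PGK1 (build GRCh38.p14, plus strand) are shown because these genes carry the contrast between neighbouring steps: chr10:97427568-97427817, chr12:6535014-6535263 and chrX:78103998-78104247. Capitals mark ACGTG on either strand, a form of the core of the element bound by hypoxia-inducible factors. Its other form, GCGTG, was not searched and is not marked. Each window lies inside the locus given above for its gene, so starts further upstream are not covered. Whether these windows precede the main start used in these cells was not tested. PGAM1 was taken as the gene with the lowest log2 ratio, and GAPDH and PGK1 were chosen after their values were seen.
PGAM1: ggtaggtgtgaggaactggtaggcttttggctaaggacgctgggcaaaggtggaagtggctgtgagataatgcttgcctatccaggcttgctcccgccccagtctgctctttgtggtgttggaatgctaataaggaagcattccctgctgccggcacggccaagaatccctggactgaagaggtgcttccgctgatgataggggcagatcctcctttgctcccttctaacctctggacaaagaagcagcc
GAPDH: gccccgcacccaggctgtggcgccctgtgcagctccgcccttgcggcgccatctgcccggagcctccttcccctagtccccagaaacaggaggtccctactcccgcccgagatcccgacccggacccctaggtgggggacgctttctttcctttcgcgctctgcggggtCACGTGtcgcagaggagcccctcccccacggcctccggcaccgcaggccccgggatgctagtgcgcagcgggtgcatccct
PGK1: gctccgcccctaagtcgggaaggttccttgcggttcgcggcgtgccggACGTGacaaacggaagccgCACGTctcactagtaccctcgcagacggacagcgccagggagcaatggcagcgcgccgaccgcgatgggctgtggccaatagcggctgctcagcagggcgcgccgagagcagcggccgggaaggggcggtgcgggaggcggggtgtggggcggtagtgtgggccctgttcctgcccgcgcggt
GAPDH and PGK1, which went in opposite directions, both hold the letters, GAPDH as 1 palindrome CACGTG counted on both strands and PGK1 at 2 places, while the PGAM1 window holds none.

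Enolase, which forms phosphoenolpyruvate, kept ENO1 as its main gene while both minor genes were higher in the USP6 library. ENO1, the widespread form, had 73.6 FPKM (4658 counts) in the USP6 and 111 FPKM (6905 counts) in the pccl library, 1.51-fold lower (1.45 to 1.57). ENO3, the muscle form (chromosome 17 from 4948092 to 4957131), had 6.91 FPKM (653 counts) in the USP6 and 1.14 FPKM (106 counts) in the pccl library, 6.06-fold higher (4.93 to 7.51), with the highest log2 ratio of the 26 (1.89). ENO2, the neuronal form, had 1.04 FPKM (117 counts) in the USP6 and 0.171 FPKM (19 counts) in the pccl library, 6.05-fold higher (3.71 to 10.4). Since ENO2 was under 1 FPKM in the pccl library, its log2 ratio with the pseudocount was 0.80, short of the 2-fold limit.

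Relative to ENO1, ENO3 was 9.13-fold higher in the USP6 library (7.40 to 11.4) and ENO2 9.13-fold higher (5.58 to 15.7), with 7.95 and 8.47 after GC centring. The ratio of ENO3 to ENO2 was 6.67 in the USP6 and 6.66 in the pccl library. ENO1 still held 90.3% of enolase FPKM in the USP6 library, against 98.8% in the pccl library, and ENO3 held 8.47% and 1.02%. With the length of the longest annotated transcript in place of the deposited length, ENO3 held 18.7% in the USP6 and 2.50% in the pccl library. Both minor genes overlap others: ENO3 overlaps PFN1 on the opposite strand, with 6912 counts in the USP6 and 9270 in the pccl library, and ENO2 overlaps LRRC23 on its own strand, with 109 and 15 counts. The strandedness of the counting is not given in the sources used here, so reads of such pairs may have been split between them. This limit is wider than enolase, since 16 of the 34 genes overlap a gene with counts. Among them, on opposite strands, are TPI1 with SPSB2 (131 counts in the USP6 and 27 in the pccl library), HK2 with AC019069.1 (170 and 217) and PDHB with AC135507.1 (141 and 191).

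Both RefSeq starts of ENO3, the gene with the highest ratio, have their 250 upstream bases at chr17:4950302-4950551 and chr17:4950869-4951118 (GRCh38.p14, plus strand). They are shown in lower case throughout since neither holds ACGTG, and GCGTG was not marked here either. Both also lie inside the locus given above for ENO3.
ENO3, first start: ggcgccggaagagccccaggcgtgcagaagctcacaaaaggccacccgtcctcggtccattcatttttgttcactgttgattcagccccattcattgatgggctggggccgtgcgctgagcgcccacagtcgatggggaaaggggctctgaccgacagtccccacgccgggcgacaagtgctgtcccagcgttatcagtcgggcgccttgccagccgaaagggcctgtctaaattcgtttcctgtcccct
ENO3, second start: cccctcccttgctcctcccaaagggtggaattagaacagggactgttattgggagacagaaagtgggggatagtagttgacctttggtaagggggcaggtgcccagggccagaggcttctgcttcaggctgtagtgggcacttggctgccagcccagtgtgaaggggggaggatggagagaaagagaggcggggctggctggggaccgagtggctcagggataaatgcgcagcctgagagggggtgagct
The first holds 18 CG dinucleotides and the second 3, against 22 in the GAPDH and 32 in the PGK1 window above.

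RefSeq windows of this length were available for 32 of the 34 genes, not for SLC2A3 and PFKFB2. ACGTG stood in 1 or more windows of 16 of the 32 genes: in 1 of the 5 higher genes, in 1 of the 3 lower genes and in 14 of the other 24. Counted per window it was in 34.5% of their 55 windows, against 18.5% of the 35116 windows of all RefSeq genes, and the windows of these genes were richer in GC (median 68.4% against 58%). CACGTG, which contains ACGTG on both strands, was in 10.9% of their windows against 6.34% of all, and the GC box GGGCGG, searched on both strands, in 63.6% against 42.6%. A match is a description of these letters and not a bound site.

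PKM, whose enzyme makes pyruvate and the last ATP of glycolysis, had 16.3 FPKM (3456 counts) in the USP6 and 25.2 FPKM (5253 counts) in the pccl library, 1.55-fold lower (1.48 to 1.61). Counts per gene do not separate its M1 and M2 splice forms. Over the 19 carriers and enzymes of glycolysis, 16 passed 1 FPKM, with a median log2 ratio of -0.39. At the 2-fold limit 3 were higher and 2 lower, against 13.7% and 11.4% of all genes.

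**Figure D3:**
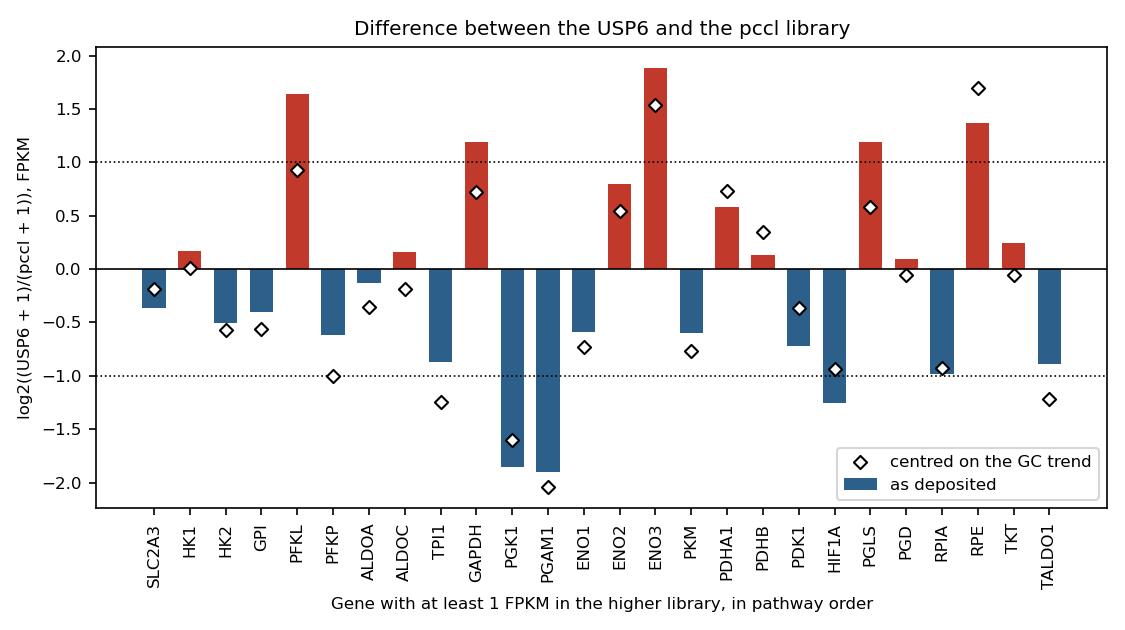
log2((USP6 + 1)/(pccl + 1)) of FPKM for the 26 genes that passed 1 FPKM, in pathway order, as bars (red above 0, blue below 0), with diamonds for the value after centring on the GC trend and dotted lines at 1 and -1. GAPDH (1.19) stands between lower neighbours TPI1 (-0.87) and PGK1 (-1.86), and after centring ENO3 and RPE alone of these 26 are above 1 while ALDOC, PGD and TKT change sign.

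At the exit towards the mitochondrion, the pyruvate dehydrogenase E1 subunits and the kinase gene PDK1 differed in direction. PDHA1, the E1 alpha subunit that is switched off by phosphorylation, had 23.9 FPKM (2868 counts) in the USP6 and 15.6 FPKM (1842 counts) in the pccl library, 1.53-fold higher (1.44 to 1.62). Its partner PDHB had 3.37 FPKM in the USP6 and 2.99 FPKM in the pccl library, with an interval that held 1. Relative to PDHB, PDHA1 was 1.36-fold higher in the USP6 library (1.16 to 1.58). PDK1, which phosphorylates the E1 alpha subunit, had 0.857 FPKM (195 counts) in the USP6 and 2.06 FPKM (460 counts) in the pccl library, 2.40-fold lower (2.03 to 2.85), but with the pseudocount its log2 ratio was -0.72. PDK3, another kinase of this family, was under 1 FPKM with 13 counts in the USP6 and 25 in the pccl library, and its interval held 1.

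Of 13 other genes of pyruvate entry, 8 passed 1 FPKM, with a median log2 ratio of -0.63, against 0.06 for all genes. At the 2-fold limit 0 were higher and 2 lower, against 13.7% and 11.4% of all genes, and at the 1.5-fold limit 2 were higher and 6 lower, against 27.9% and 24.5%. The E2 gene of the same complex, DLAT, had 3.67 FPKM in the USP6 and 11.7 FPKM in the pccl library, 3.18-fold lower (2.79 to 3.63), and the E3 gene DLD 1.61 and 4.50 FPKM, 2.80-fold lower (2.35 to 3.35). Within 1 complex the E1 subunits thus had log2 ratios of 0.58 and 0.13, and E2 and E3 of -1.44 and -1.08. After GC centring these were 0.73, 0.35, -1.19 and -0.72. In the tricarboxylic acid cycle, 16 of 16 genes passed 1 FPKM, with a median of -0.38. At the 2-fold limit 1 was higher and 3 lower, against 13.7% and 11.4% of all genes. Citrate synthase (CS) was 2.73-fold (2.52 to 2.97), IDH3A 12.7-fold (10.4 to 15.6) and SDHB 3.38-fold lower (2.79 to 4.12), and OGDH was 2.84-fold higher (2.34 to 3.47).

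HIF1A (chromosome 14 from 61695513 to 61748259) had 0.262 FPKM (32 counts) in the USP6 and 2.01 FPKM (241 counts) in the pccl library, 7.66-fold lower (5.28 to 11.5), the largest fold in the downward direction among the 26 genes. Its transcript is the poorest in GC of the 26 (36.4%), and its log2 ratio of -1.25 was -0.94 after GC centring. Of the 23 other genes of the HIF pathway, 11 passed 1 FPKM, with a median of 0.03. At the 2-fold limit 1 was higher and 1 lower, against 13.7% and 11.4% of all genes. The mitophagy receptor gene BNIP3L was 2.41-fold higher (2.11 to 2.76), and TFRC, which encodes the receptor for iron-loaded transferrin, was 7.12-fold lower (6.52 to 7.78).

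In the oxidative arm of the pentose phosphate pathway, the lactonase was higher and the dehydrogenase after it was level. PGLS, which opens the phosphogluconolactone ring (chromosome 19 from 17511629 to 17521288), had 42.6 FPKM (2306 counts) in the USP6 and 18.1 FPKM (965 counts) in the pccl library, 2.35-fold higher (2.18 to 2.54). This transcript too is rich in GC (61.6%), and its log2 ratio of 1.19 was 0.58 after centring. It overlaps AC010618.3 on the opposite strand, with 104 and 18 counts in USP6 and pccl. PGD, which releases carbon dioxide and NADPH, had 19.0 FPKM in the USP6 and 17.7 FPKM in the pccl library, with an interval that held 1 and a sign that changed with depth from nuclear genes (log2 ratio 0.10 and then -0.02).

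In the non-oxidative arm, both enzymes that act on ribulose 5-phosphate stood on opposite sides. RPE, the epimerase that makes xylulose 5-phosphate (chromosome 2 from 210002565 to 210022259), had 2.53 FPKM (327 counts) in the USP6 and 0.362 FPKM (46 counts) in the pccl library, 6.99-fold higher (5.12 to 9.73). RPIA, the isomerase that makes ribose 5-phosphate (chromosome 2 from 88691644 to 88750935), had 13.1 FPKM (304 counts) in the USP6 and 26.9 FPKM (611 counts) in the pccl library, 2.04-fold lower (1.78 to 2.35). Its log2 ratio with the pseudocount, -0.98, was just short of the 2-fold limit. The ratio of RPIA to RPE was 5.20 in the USP6 and 74.3 in the pccl library. RPE against RPIA differed 14.3-fold between the libraries (10.1 to 20.5), and 17.3-fold after GC centring, since the RPE transcript is poor in GC (36.6%). RPE overlaps KANSL1L on the opposite strand, which had 21 counts in the USP6 and 27 in the pccl library.

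The sugar-exchanging enzymes of this arm also differed. TALDO1, transaldolase, had 8.27 FPKM (569 counts) in the USP6 and 16.1 FPKM (1092 counts) in the pccl library, 1.95-fold lower (1.76 to 2.16), and its log2 ratio of -0.89 was -1.22 after GC centring. TKT, transketolase, had 20.04 FPKM (4633 counts) in the USP6 and 16.7 FPKM (3804 counts) in the pccl library, 1.20-fold higher (1.15 to 1.25), with a log2 ratio of 0.25 that became -0.06 after centring. The ratio of TKT to TALDO1 was 2.42 in the USP6 and 1.04 in the pccl library, a 2.34-fold difference (2.09 to 2.61) that hardly moved with centring (2.38). All 6 pentose phosphate genes passed 1 FPKM, with a median log2 ratio of 0.17. At the 2-fold limit 2 were higher and 0 lower, against 13.7% and 11.4% of all genes. At the 1.5-fold limit 2 were higher and 2 lower, against 27.9% and 24.5% of all genes. Of 10 further genes of this pathway and its outlets, 3 passed 1 FPKM, with 0 higher and 1 lower and a median of -0.17. The lower one was PRPS1, which turns ribose 5-phosphate into the precursor of nucleotides, 4.11-fold lower (3.18 to 5.37).

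**Figure D4:**
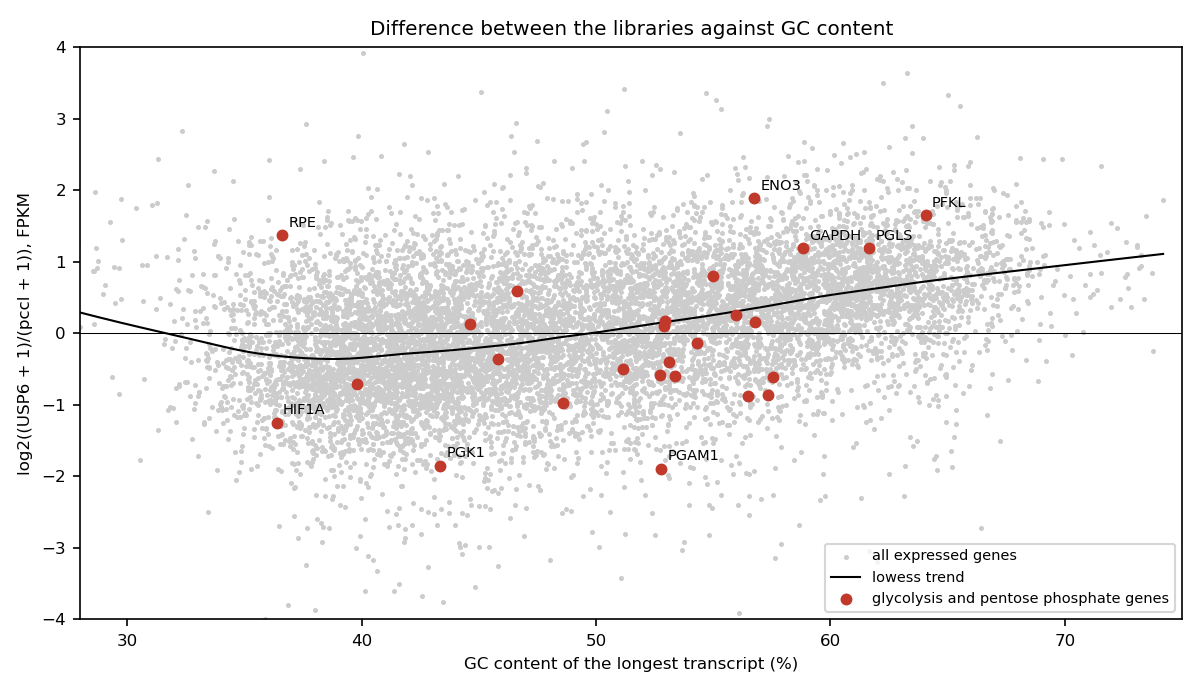
log2((USP6 + 1)/(pccl + 1)) of FPKM against the GC content of the longest transcript in percent, for all genes that passed 1 FPKM (grey, with 12 genes outside the axes), the lowess trend over them (line) and the 26 pathway genes (red, those past the 2-fold limit named). PFKL, GAPDH and PGLS lie at 58.8% to 64.1% GC, where the trend is above 0, while RPE and PGAM1 lie far from the trend.

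The differences followed GC content within the pathway much as in all genes. The Spearman correlation of transcript GC with the log2 ratio was 0.38 over the 26 genes and 0.40 over 10108 genes, given as a description since the points share the same libraries. PFKL, GAPDH and PGLS, at 58.8% to 64.1% GC, were above 1 as deposited and at 0.92, 0.72 and 0.58 after centring. ENO3 and RPE kept log2 ratios above 1 (1.54 and 1.70), and PGK1 and PGAM1 kept ratios below -1 (-1.60 and -2.04). PFKP, TPI1 and TALDO1 passed -1 only after centring, and HIF1A then no longer did. Which part of the difference goes with GC content through the preparation of the libraries was not tested.

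The remaining glucose genes showed no common direction. For comparison, 13.7% of all genes were higher and 11.4% lower at the 2-fold limit, and 27.9% and 24.5% at the 1.5-fold limit. Of 10 further genes listed as glucose carriers 2 passed 1 FPKM, with 0 past either limit. These were SLC2A13, 1.93-fold lower (1.49 to 2.52), and SLC37A4, 1.54-fold higher (1.35 to 1.75). Their median of -0.01 is the midpoint of opposed log2 ratios, -0.45 and 0.44, and does not mean that both were level. Of 22 further glycolytic and side enzymes 21 were in the table and 9 passed, with 1 higher and 3 lower and a median of -0.01. Besides PGAM2, these were PGM1 (6.70-fold lower, 4.26 to 11.0) and PGM2 (2.78-fold lower, 2.36 to 3.28), both phosphoglucomutase genes, and PGAM5, a mitochondrial phosphatase named for its likeness to the mutases (13.6-fold lower, 10.5 to 17.9). Of 12 glycogen genes 10 passed, with 1 higher and 1 lower and a median of -0.16. Glycogen synthase GYS1 had 15 counts in the USP6 and 566 in the pccl library, 38.4-fold lower (23.1 to 69.0), and the phosphorylase kinase subunit PHKG2 was 2.73-fold higher (2.40 to 3.10). Among the carbohydrate-sensing transcription factors and their target TXNIP, 5 genes, 4 passed and 1 was higher, MLXIP, a partner of MLX in sensing glucose phosphates, at 2.74-fold (2.56 to 2.94), with a median of 0.14.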

How the data were processed

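RNA of KASUMI-1 cells was sequenced as 1 library per group. HISAT2 2.0.4, StringTie 1.3.3b and edgeR appear in the submitters' processing notes with no roles. Build, annotation and strandedness are not given in the sources used here. Deposited values include read counts, whole numbers per gene. The authors' FPKM values divide these counts by a length per gene and by the library's sum over genes, mitochondrial ones included. The loci of 26 of the 34 genes were identical in GENCODE release 29 (GRCh38), which gave transcript GC content and lengths.

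Values of rows with 1 symbol were summed. With 0 residual degrees of freedom no test was made. Centring on GC used a lowess trend (span 0.3) over expressed genes. Ratios of ratios have exact conditional intervals. Their GC-centred values are plain count ratios shifted by the trend, which was fitted on log2 ratios with the pseudocount. The 2 scales differ most for genes of low level, so these centred values are approximate. All 34 genes are named, and from further lists up to 4 genes past the 2-fold limit, by size. The genes and lists were chosen with earlier results of these data known. Calls, intervals and centring were tested on simulated data. Computations ran in R 4.3.3 with edgeR 4.0.16 (trimmed mean of M values and upper quartile only) and in Python 3.11.15 with SciPy 1.17.1, statsmodels 0.14.6, pandas 2.3.3, matplotlib 3.10.9 and NumPy 2.4.6. Alternatives covered pseudocounts, filters, scalings, fold limits, gene lengths and pseudogenes.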

Additional observations from a re-analysis of the deposited data

How the results depend on the processing

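Over 74 recomputed values of the 8 genes past the 2-fold limit (other pseudocounts or none, other scalings, GC centring, pseudogenes added), 0 changed direction and 67 stayed past the limit. The 0 was fixed in advance for the pseudocounts, which cannot change the direction of a ratio. Scalings shift it little: depth from nuclear genes multiplies each plain fold by 0.923. These values therefore do not stand in for a replicate. The share of all genes past the limit also differed by setting. With a pseudocount of 5 FPKM 3 of the 26 were higher, against 3.59% of all genes, and with 0.1 FPKM 5 were lower, against 19.6%. With depth from nuclear genes 6 of 28 were lower, against 16.1%, and at the 1.5-fold limit 10 of 26, against 24.5%. After GC centring 2 were higher and 5 lower, against 9.69% and 9.84%. The median log2 ratio of -0.25 was -0.13 with a pseudocount of 5 FPKM, -0.45 for the 18 genes reaching 5 FPKM in either library, -0.072 with no filter on level, -0.37 for the 25 genes whose mean level passed 1 FPKM and -0.38 with depth from nuclear genes. The trimmed mean of M values and a median log2 ratio of 0 each gave 5 higher and 4 lower of 26. Of all genes, 11.8% were higher and 13.3% lower in the former setting, and 11.9% and 13.0% in the latter. The upper quartile gave 5 and 3 of 26, against 14.9% and 10.4% of all genes. PFKL against PFKP was 5.32 after GC centring, and ENO3 against ENO2, level before, was 0.938, inside its counting interval. PGD over both libraries was 0.989 in place of 1.07 with depth from nuclear genes. Beyond the construction of each setting, the cause of these shifts was not tested. The use of longest transcript lengths, the addition of pseudogenes and the fold without a pseudocount were chosen after the data had been seen. No paired analysis was possible because each group holds 1 library. Depth limits the genes under 1 FPKM, where 0 to 37 counts per library leave wide intervals, and for PFKM and PFKFB2 no fold.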
